A study of Mus musculus with 4 samples.

Results

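The clustered histone genes are the histone genes that lie side by side in the Hist1, Hist2 and Hist3 clusters, and they were taken here as every gene name of the deposited table that starts with Hist1h, Hist2h, Hist3h or Hist4. The rule found 57 names, in 62 rows, out of 18674 names in 23750 rows. No name started with Hist4. By the histone that they encode, 6 names were H1, 13 were H2a, 16 were H2b, 11 were H3 and 11 were H4. Of the 57 names, 44 belonged to Hist1, 10 to Hist2 and 3 to Hist3. The rule used names only and no measured value.

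RNA of the lumbar spinal cord was sequenced in 4 libraries, 1 for each condition, from wild type (WT) mice and from G93A mice, each given vehicle or spermidine (SD), a natural polyamine. The G93A mice carry a human SOD1 transgene with a mutation of amyotrophic lateral sclerosis and are of a high-expresser line (named H1, not the histone) on a B6/SJLF1 background. Per the labels and methods, SD or PBS was given 4 times a week for 30 days, SD at 5 mg/kg by intraperitoneal injection, and the male mice were 100 days old when tissue was taken. With 1 library per condition, differences between conditions lack a check by replicates and no p-value is given, and the number of animals behind a library is not named in the sources used here. Values are RPKM, reads per kilobase of transcript after scaling to the depth of the library, a unit inferred from the values. Where a pair of values is given for a genotype, the vehicle library comes first and the SD library second. Each library was estimated to hold between 36800000 and 38600000 stretches of 216 aligned bases, called units here. In bulk tissue, fewer cells of a type and less RNA per cell cannot be told apart. The summed level of 4 Hox genes listed for lumbar position was 37.6 and 38.6 RPKM in the WT libraries and 27.2 and 25.8 RPKM in the G93A libraries. Of the 4, 1 was at least 1.5-fold lower in G93A under vehicle and 2 under SD (4.68% and 8.12% of all names with a mean of at least 1 RPKM). Hoxc9 had 3.35 and 3.19 RPKM in WT and 3.30 and 3.27 RPKM in G93A.

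Clustered histone genes make the bulk of new histones while DNA is copied, and their mRNAs are unusual in ending at a short stem-loop instead of a poly(A) tail. The stem-loop is bound by SLBP, and the end is made with the help of the U7 snRNP. Some of the same genes also give longer, polyadenylated mRNAs, above all in cells that have stopped dividing, and a library made from polyA RNA, as here, captures mainly those.

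The stem-loop sites are shown because the classical mRNA ends near them, so that a transcript model that goes on far past them describes the longer form. In the GENCODE vM21 transcripts (GRCm38) paired with the rows, the letters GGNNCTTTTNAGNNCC, searched on the transcript strand alone, were found in 39 of the 57 members and in 0.0875% of all 141767 GENCODE transcripts. The sites of 5 members, 1 or 2 of them for each of H1, H2b and H4, read as follows, 5′ to 3′ on the transcript strand, with the 16 letters of the search in capitals.
Hist1h1c, chr13:23739506-23739531, plus strand: ccaaaaGGCTCTTTTCAGAGCCacca
Hist3h2ba, chr11:58949343-58949368, plus strand: cccaaaGGCTCTTTTCAGAGCCacct
Hist1h2be, chr13:23585527-23585552, minus strand: accaaaGGCTCTTTTCAGAGCCaccc
Hist1h4i, chr13:22040962-22040987, minus strand: cttaaaGGCCCTTTTTAGGGCCacca
Hist1h4h, chr13:23531452-23531477, plus strand: accaaaGGCCCTTTTCAGGGCCgccc
The H1 and H2b sites have the same 16 letters, and the H4 sites differ from them in the stem and from each other within the loop. The model of Hist1h1c goes on for 840 bases after the letters, that of Hist1h2be for 1861 bases and that of Hist1h4h for 46 bases. All 39 matched models go on past the letters, by between 11 and 4884 bases, and a short stretch does not show the longer form.

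Most clustered histone genes were near the lower end of the measured range. Of the 57 members, 9 (15.8%) had a mean over the 4 libraries of at least 1 RPKM, against 12987 of all 18674 names (69.5%). Another 18 members lay between 0.1 and 1 RPKM and 30 lay below 0.1 RPKM. The median mean of the 48 members below 1 RPKM was 0.055 RPKM, and that of all names was 4.43 RPKM. None of the members was at 0 in every library, and 36 were above 0 in all 4. WT + SD had 9 members at 0, and each of the other libraries had 11.

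The 9 members with a mean of at least 1 RPKM covered every class, with 2 of 6 H1 names, 1 of 13 H2a names, 4 of 16 H2b names, 1 of 11 H3 names and 1 of 11 H4 names. By cluster they were 5 of 44 in Hist1, 2 of 10 in Hist2 and 2 of 3 in Hist3. Hist1h2bc, an H2b gene, stood highest with a mean of 35.0 RPKM, above 91.7% of all names. It was followed by Hist1h1c, which encodes a linker histone, at 12.2 RPKM, and by the H2b and H2a genes of the Hist3 cluster, Hist3h2ba at 7.79 RPKM and Hist3h2a at 7.05 RPKM. The other 5 lay between 1.21 and 2.09 RPKM.

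**Figure D1:**
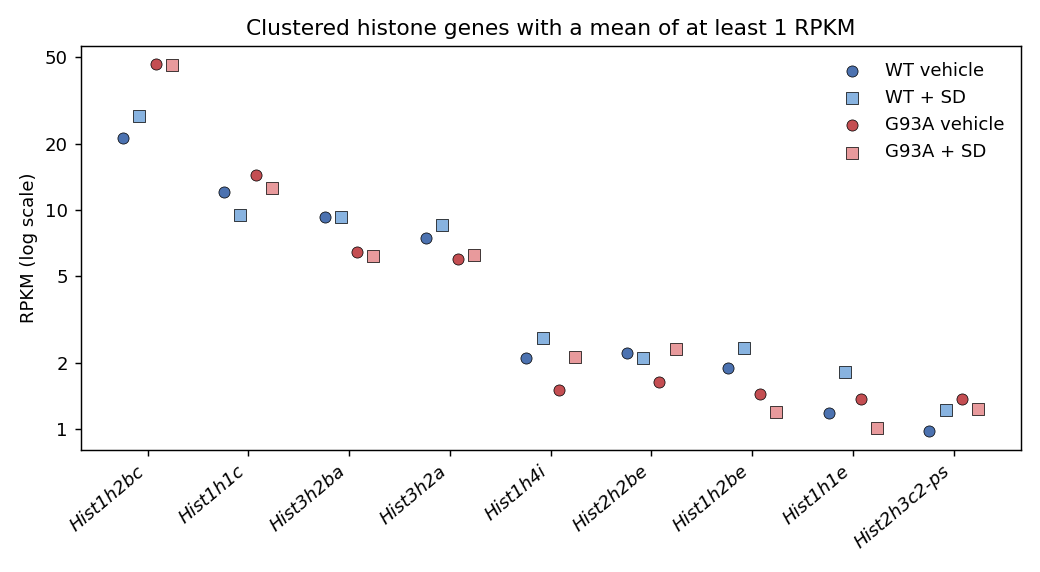
RPKM (log scale) of the 9 clustered histone genes whose mean reached 1 RPKM, 1 point per library, blue for WT and red for G93A, circles for vehicle and squares for SD. Both G93A points of Hist1h2bc, Hist1h1c and Hist2h3c2-ps lie above both WT points, as for 43.7% of all names. Both G93A points of Hist3h2ba, Hist3h2a and Hist1h2be lie below them, as for 32.6% of all names.

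The length of the transcript model behind a value differed between the members above and below 1 RPKM. A value multiplied by the length of its model is a whole number of aligned bases times a constant of the library. The length taken was the smallest that makes all values of a row whole. Where the coding length was known the search began there, so that a model shorter than the coding sequence could not be found. The true length, and with it the number of units behind a value, may be a multiple of the length taken. A length was recovered for 56 of the 62 rows. All 10 rows of the 9 names with a mean of at least 1 RPKM had models longer than the coding sequence, by between 225 and 2124 bases. Of the 45 rows below 1 RPKM whose coding length is also known, 25 had models of exactly the coding length and 20 had longer ones. The 25 were 6 H4 rows of 312 bases, 7 H2b rows of 381 bases, 7 H2a rows, most of them of 393 bases, 4 H3 rows of 411 bases and 1 H1 row, Hist1h1b, of 672 bases. A read from sequence past the stop codon is not counted in a model of coding length, and the part of this in the low values was not tested.

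**Figure D2:**
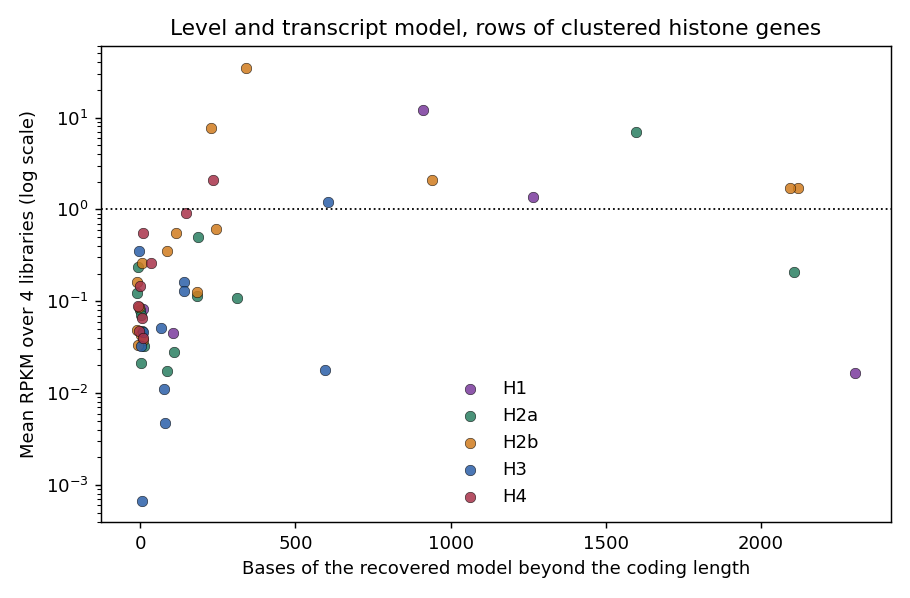
Mean RPKM over 4 libraries (log scale) of each row of a clustered histone gene against the number of bases by which its recovered model exceeds the coding length, coloured by histone class, with a small sideways jitter. Every row above the dotted line at 1 RPKM lies to the right of 0, while rows below it are found both at 0 and as far out as 2311 bases.

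A longer model did not by itself go with a high value. Hist1h2ac, an H2a gene, had a recovered model of 2493 bases and a mean of 0.211 RPKM, and Hist1h1d, a linker histone gene, had 2977 bases and 0.0164 RPKM. In the GENCODE models, at least 100 bases followed the stem-loop letters in 7 of the 9 members above 1 RPKM and in 14 of the 48 below. The letters AATAAA, the commonest polyadenylation signal, stood in the last 60 bases of 4 of the 9, of 7 of the 48 and of 27.1% of all GENCODE transcripts. The authors' models differ in length from the GENCODE models for many rows, so that these letters describe the GENCODE models. Hist1h2bc and Hist2h2be had no match to the stem-loop letters in their GENCODE models.

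Hist1h2bc had 21.4 and 26.8 RPKM in the WT libraries and 46.2 and 45.7 RPKM in the G93A libraries. Both G93A libraries were above both WT libraries. The ratio of G93A to WT was 2.16 under vehicle and 1.70 under SD, and 94.0% and 87.7% of the names with a mean of at least 1 RPKM had a lower ratio. The gene lies at chr13:23684199-23692908 on the plus strand, and its GENCODE model has 2 exons and 1156 bases, against a recovered length of 728 bases. Its values rest on between 572 and 1284 units of 216 aligned bases, with a mean of 971, the highest mean of the recovered rows. Of the 1104 windows of 53 bases, the stated read length, in its GENCODE transcript, 328 (29.7%) are also found in other genes. The sources used here do not say how reads of such stretches were assigned, so that its level is uncertain. The share is that of the GENCODE model and not of the shorter recovered model.

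Hist1h2bc starts inside the promoter window of its neighbour Hist1h2ac, which is read in the other direction, and this window is shown because it holds the starts of genes of very unequal level. The RefSeq window (GRCm38.p6) runs from 250 bases before to 50 bases after the start of Hist1h2ac at chr13:23683910-23684209 on the minus strand, and the start of Hist1h2bc lies at its upstream end. In capitals are the TATA box letters TATAAA, the letters CCAAT and the octamer ATTTGCAT, each on either strand.
Hist1h2ac: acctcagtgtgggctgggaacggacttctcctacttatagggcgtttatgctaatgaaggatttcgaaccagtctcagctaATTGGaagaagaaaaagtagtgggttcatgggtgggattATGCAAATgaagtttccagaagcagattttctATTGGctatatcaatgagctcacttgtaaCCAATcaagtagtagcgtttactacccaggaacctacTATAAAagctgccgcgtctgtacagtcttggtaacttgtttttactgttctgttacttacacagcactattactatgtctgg
The mean was 35.0 RPKM for Hist1h2bc and 0.211 RPKM for Hist1h2ac. Over the members, a RefSeq promoter of the same length was matched for 51. CCAAT on either strand stood in 86.3% of them and in 37.4% of the 32851 promoters of the table, TATAAA in 58.8% and 13.6%, and ATTTGCAT, the octamer of H2b promoters, in 21.6% and 1.74%. CCAAT stood in all matched H1, H2a, H2b and H3 promoters but in 3 of the 10 H4 promoters. The octamer was found in 6 of 13 H2a and 5 of 13 H2b promoters and in none of the 6 H1, 9 H3 or 10 H4 promoters. A match of letters is a description and not a site of binding.

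Of the 3 names of the Hist3 cluster, Hist3h2ba and Hist3h2a had lower values in G93A, and Hist3h2bb-ps, with 0.253 and 0.322 RPKM in WT and 0.292 and 0.218 RPKM in G93A, overlapped between the genotypes. Hist3h2ba had 9.28 and 9.28 RPKM in the WT libraries and 6.46 and 6.15 RPKM in the G93A libraries. It was 1.44-fold lower in G93A under vehicle and 1.51-fold lower under SD, so that it passed the 1.5-fold limit only in the second. After median-ratio scaling it passed the limit under vehicle as well, and with a pseudocount of 1 RPKM it passed it in neither, at a log2 ratio of -0.46 under vehicle and -0.53 under SD. Hist3h2a had 7.47 and 8.52 RPKM in the WT libraries and 5.98 and 6.24 RPKM in the G93A libraries, which is 1.25-fold and 1.36-fold lower in G93A and short of 1.5-fold in both. In both genes the G93A libraries lay below the WT libraries without overlap, as they did for 32.6% of all names. Both genes lie on chromosome 11 on the plus strand, Hist3h2ba at chr11:58948920-58949533 and Hist3h2a at chr11:58954685-58956830. Exons of Hist3h2a overlap those of Trim17 and Gm44313, and 657 of its 2094 windows of 53 bases (31.4%) are found in other genes, so that its level is uncertain. For Hist3h2ba these are 119 of 562 windows (21.2%).

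The promoter windows of Hist3h2ba and Hist3h2a are shown because both had lower values in G93A and because the octamer stands in that of Hist3h2a and not in that of Hist3h2ba. The windows are chr11:58948661-58948960 and chr11:58954435-58954734, both on the plus strand, with the same letters in capitals.
Hist3h2ba: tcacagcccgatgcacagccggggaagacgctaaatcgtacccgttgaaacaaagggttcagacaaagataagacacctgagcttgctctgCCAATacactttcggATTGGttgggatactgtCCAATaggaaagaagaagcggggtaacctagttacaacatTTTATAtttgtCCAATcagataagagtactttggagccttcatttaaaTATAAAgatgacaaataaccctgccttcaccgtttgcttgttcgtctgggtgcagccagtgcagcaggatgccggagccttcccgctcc
Hist3h2a: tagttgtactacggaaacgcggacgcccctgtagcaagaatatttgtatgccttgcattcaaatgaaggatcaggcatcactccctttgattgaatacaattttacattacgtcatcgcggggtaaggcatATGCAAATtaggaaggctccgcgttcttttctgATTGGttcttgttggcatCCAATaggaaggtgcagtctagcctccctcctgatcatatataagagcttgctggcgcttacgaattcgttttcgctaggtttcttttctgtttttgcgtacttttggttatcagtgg
Both windows hold CCAAT on both strands, and TATAAA was found in that of Hist3h2ba.

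The linker histone genes differed from each other. Hist1h1c had 12.1 and 9.52 RPKM in the WT libraries and 14.4 and 12.7 RPKM in the G93A libraries. Its G93A libraries lay above its WT libraries, by 1.19-fold under vehicle and 1.33-fold under SD, and both SD libraries lay below the vehicle library of the same genotype. Hist1h1e had 1.19 and 1.83 RPKM in the WT libraries and 1.38 and 1.02 RPKM in the G93A libraries. It was 1.55-fold higher with SD in WT and 1.36-fold lower with SD in G93A, and it was 1.17-fold higher in G93A under vehicle and 1.80-fold lower in G93A under SD. WT + SD was its highest library and G93A + SD its lowest. With a pseudocount of 1 RPKM neither call of Hist1h1e was kept, at a log2 ratio of 0.38 for WT + SD against WT vehicle and -0.49 for G93A + SD against WT + SD. The values rest on 84.2, 135, 102 and 75.9 units of 216 aligned bases.

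Hist1h2be, an H2b gene, followed the same order at its extremes. It had 1.91 and 2.34 RPKM in the WT libraries and 1.46 and 1.20 RPKM in the G93A libraries, so that it was 1.31-fold lower in G93A under vehicle and 1.95-fold lower under SD. Its WT and G93A libraries did not overlap. Hist1h1e and Hist1h2be are both on the minus strand of chromosome 13, at chr13:23620629-23622558 and chr13:23583670-23621124, and in GENCODE their exons overlap each other and those of Gm11398. How reads of the shared stretch were assigned is not given in the sources used here, so that both levels are uncertain.

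The remaining members with a mean of at least 1 RPKM did not reach 1.5-fold in any comparison. Hist1h4i, an H4 gene, had 2.11 and 2.61 RPKM in the WT libraries and 1.51 and 2.13 RPKM in the G93A libraries, from between 30.7 and 53.7 units of 216 aligned bases. Hist2h2be, whose H2B protein is known from olfactory neurons, had 2.23 and 2.11 RPKM in WT and 1.65 and 2.33 RPKM in G93A. G93A vehicle was the lowest library of both genes, and the genotypes overlapped. Hist2h3c2-ps, named Hist2h3c2 in GENCODE and an H3 gene, had 0.981 and 1.23 RPKM in the WT libraries and 1.38 and 1.25 RPKM in the G93A libraries. Its WT + SD and G93A + SD libraries lay close together, and 614 of its 968 windows of 53 bases (63.4%) are also found in other genes, so that its level is uncertain. None of the windows of Hist2h2be occur in another gene (0 of 2568).

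A name was called where it differed at least 1.5-fold and its mean was at least 1 RPKM. Under vehicle, 1 of the 9 members was higher in G93A (Hist1h2bc), where 13.5% of all 12987 names were higher, and 0 were lower, where 4.68% were. Under SD, 1 was higher in G93A (Hist1h2bc; 16.3% of all names) and 3 were lower, namely Hist1h1e, Hist1h2be and Hist3h2ba (8.12% of all names). Hist1h2bc alone was called in both genotype comparisons, which share no library, where 12% of all names were called higher in both, and no member was called lower in both, where 3.54% of all names were.

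The comparisons of SD with vehicle called fewer names in the whole table. In WT, 1 member was higher with SD (Hist1h1e; 0.909% of all names) and 0 were lower (1.36% of all names). In G93A, 0 were higher with SD (1.34% of all names) and 0 were lower (1.04% of all names). These comparisons share libraries with the genotype comparisons, and the WT + SD library, where Hist1h1e was highest, enters both of its calls. The median log2 ratio of G93A to WT over the 9 members was -0.32 under vehicle and -0.29 under SD, beside 0.051 and 0.048 over all names above 0 in both libraries. The median log2 ratio of SD to vehicle over the members was 0.30 in WT and -0.072 in G93A, beside 0.015 and 0.0088 over all names.

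**Figure D3:**
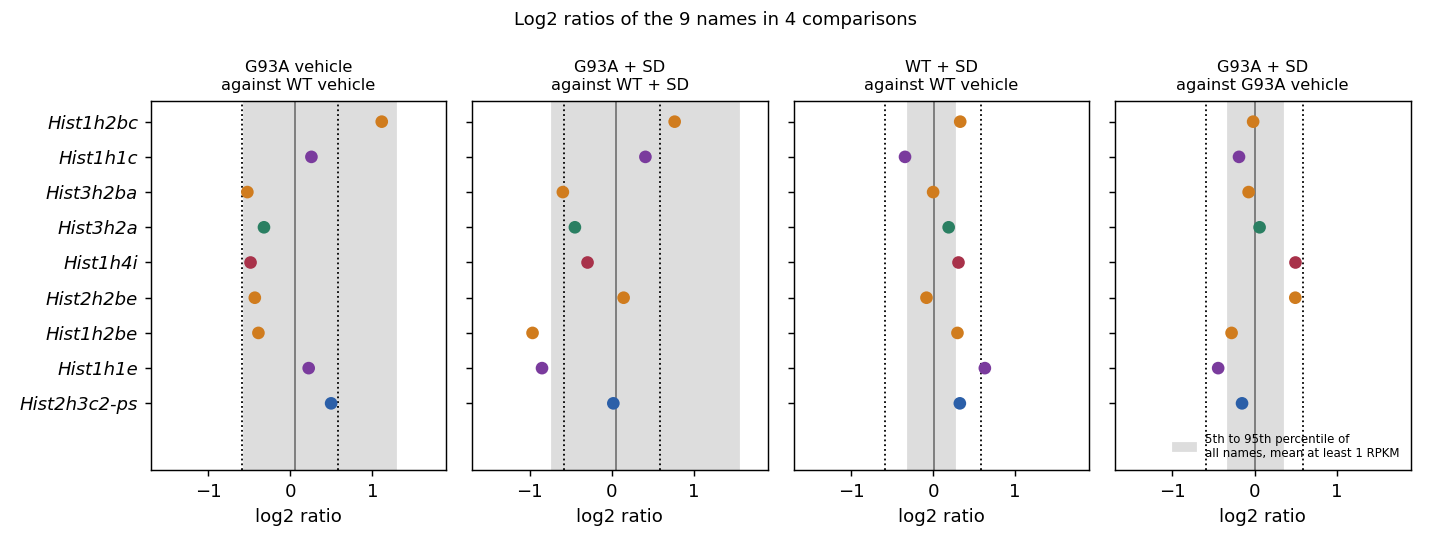
Log2 ratio of the 9 members in the 4 comparisons, coloured by histone class (H1 purple, H2a green, H2b orange, H3 blue, H4 red), with the 5th to 95th percentile of all names with a mean of at least 1 RPKM in grey, their median as a grey line and the 1.5-fold limits dotted. Hist1h2bc lies right of the upper limit in both genotype comparisons, and 5 of the 9 members lie left of 0 in each of them.

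Without regard to the size of the difference, both G93A libraries were above both WT libraries for 3 of the 9 members (Hist1h1c, Hist1h2bc and Hist2h3c2-ps), where 43.7% of all names were. They were below both WT libraries for 3 members (Hist1h2be, Hist3h2a and Hist3h2ba), where 32.6% of all names were. With 9 members, neither share stands far from that of the whole table.

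The summed level of the clustered histone genes was higher in G93A with Hist1h2bc and lower without it. The summed level of all 57 members was 64.7 and 71.5 RPKM in the WT libraries and 88.1 and 84.7 RPKM in the G93A libraries. Without Hist1h2bc it was 43.4 and 44.6 RPKM in WT and 41.9 and 39.1 RPKM in G93A. Hist1h2bc alone made up 33.0% and 37.6% of the sum in the WT libraries and 52.4% and 53.9% in the G93A libraries. By class, the H2b sum was 1.58-fold higher in G93A under vehicle and 1.34-fold higher under SD, but without Hist1h2bc it was 15.7 and 16.4 RPKM in WT and 12.5 and 12.2 RPKM in G93A. The H1 sum was 1.20-fold higher in G93A under vehicle and 1.18-fold higher under SD. The H2a sum was 8.75 and 9.64 RPKM in WT and 7.43 and 7.28 RPKM in G93A, the H3 sum 1.75 and 1.89 RPKM in WT and 2.03 and 1.85 RPKM in G93A and the H4 sum 3.87 and 5.04 RPKM in WT and 3.98 and 4.00 RPKM in G93A.

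**Figure D4:**
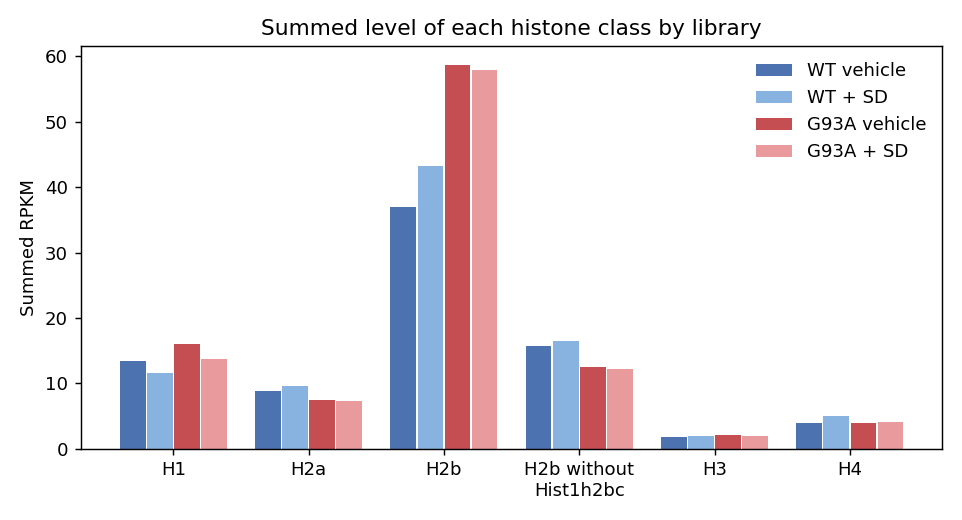
Summed RPKM of each histone class in the 4 libraries, as bars from 0, with the H2b class also shown without Hist1h2bc. The H2b bars of the G93A libraries stand above those of the WT libraries with Hist1h2bc and below them without it.

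The 48 members below 1 RPKM rest on few units of 216 aligned bases where a model length was recovered. The highest were Hist1h4h, with 0.462 and 1.06 RPKM in WT and 1.29 and 0.806 RPKM in G93A, Hist1h2bg, with 0.606 and 0.343 RPKM in WT and 0.723 and 0.780 RPKM in G93A, and Hist2h2bb, with 0.403 and 0.771 RPKM in WT and 0.568 and 0.483 RPKM in G93A. Hist1h4h was lowest in WT vehicle and Hist1h2bg in WT + SD, and the genotypes did not overlap for Hist1h2bg. All 329 windows of 53 bases in the GENCODE transcript of Hist2h2bb are found in other genes, as are 190 of 418 for Hist1h4h and 280 of 566 for Hist1h2bg, so that these levels are uncertain. All 46 rows of this group with a recovered length had under 20 units of 216 aligned bases on average, with a median of 1.26 units, and 19 had under 1 unit. At the lower end, the values of Hist1h3b stand for 4 aligned bases in WT vehicle and 5 in G93A vehicle. With every name counted, 17 of the 57 members were at least 1.5-fold higher in G93A and 13 lower under vehicle (20.3% and 10.3% of all names), and 11 were higher and 22 lower under SD (23.2% and 12.5%). With SD, 20 were higher and 16 lower in WT (7.18% and 8.55%), and 9 were higher and 20 lower in G93A (8.71% and 7.31%). Counts of this kind include members whose values stand for less than 1 unit, and no interval or test was derived for them.

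Of the machinery that makes and handles histone mRNA, Lsm10 was called higher in G93A under vehicle alone and Lsm11 lower under SD alone. Their WT and G93A libraries did not overlap, and neither did those of Eri1, Cpsf2, Cpsf3, Cstf2 and Npat. Over all names, both G93A libraries were above both WT libraries for 43.7% and below them for 32.6%. Of 12 listed genes of 3′ end processing and turnover, 11 were in the table and 10 had a mean of at least 1 RPKM. Under vehicle 1 was called higher in G93A and 0 lower (13.5% and 4.68% of all names), and under SD 0 were higher and 1 lower (16.3% and 8.12%). Lsm10, a subunit of the U7 snRNP, had 3.90 and 4.31 RPKM in WT and 6.29 and 6.29 RPKM in G93A, which is 1.61-fold higher under vehicle and 1.46-fold higher under SD. Lsm11, its partner in the same particle, had 8.47 and 9.32 RPKM in WT and 5.69 and 4.95 RPKM in G93A, which is 1.49-fold lower under vehicle and 1.88-fold lower under SD. Both comparisons of SD with vehicle called 0 genes of this list. Slbp, the stem-loop binding protein, had 9.69 and 10.6 RPKM in WT and 11.1 and 10.5 RPKM in G93A. The cleavage factors with the highest means were Cstf2, with 26.4 and 27.4 RPKM in WT and 25.5 and 24.7 RPKM in G93A, and Cpsf3, with 15.2 and 15.3 RPKM in WT and 18.4 and 17.6 RPKM in G93A. The median log2 ratio of the list was 0.051 under vehicle and -0.008 under SD.

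Among the histone chaperones, which carry histones to DNA, 9 of the 10 found had a mean of at least 1 RPKM. The 1 called, Asf1b, a chaperone of dividing cells, reached that mean only through the G93A libraries, where it is high, so that its calls as higher in G93A (13.5% of all names under vehicle and 16.3% under SD) follow in part from the filter. It had 0.383 and 0.592 RPKM in the WT libraries and 1.48 and 1.57 RPKM in the G93A libraries. It was also called higher with SD in WT, by 1.55-fold (0.909% of all names), from values below 1 RPKM. The other 8, among them Ssrp1, Atrx and Nap1l1 with the highest means, were called in no comparison. Chaf1b, below that mean and named after its values were seen, had 0.275 and 0.237 RPKM in WT and 0.746 and 0.816 RPKM in G93A. With all 10 counted, 2 were at least 1.5-fold higher in G93A and 0 lower, both under vehicle and under SD. Of all names, 20.3% and 23.2% were higher.

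Histone genes outside the clusters mostly encode variant histones, and most of them are made throughout the cell cycle as polyadenylated mRNA. Of 11 listed, 10 had a mean of at least 1 RPKM, against 9 of the 57 clustered names. The other, Cenpa, the histone variant of centromeres, which was named after its values were seen, had 0.177 and 0.199 RPKM in WT and 1.48 and 1.51 RPKM in G93A, 8.36-fold and 7.57-fold higher. Of the 10, 0 were called higher and 0 lower under vehicle (13.5% and 4.68% of all names), and 2 were higher and 0 lower under SD (16.3% and 8.12% of all names). The 2 were the genes of histone H3.3, H3f3b, with 55.5 and 53.2 RPKM in WT and 71.8 and 86.7 RPKM in G93A, and H3f3a, with 27.1 and 26.4 RPKM in WT and 35.4 and 47.5 RPKM in G93A. H1f0, the linker histone of resting cells, had 43.5 and 41.1 RPKM in WT and 33.9 and 33.2 RPKM in G93A, with the G93A libraries below the WT libraries.

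Clustered histone genes are used when DNA is copied, and genes of DNA replication and the cell cycle were listed for this reason. With every listed gene counted, whatever its mean, a count chosen after the values were seen, 15 of 23 were at least 1.5-fold higher in G93A and 0 lower under vehicle (20.3% and 10.3% of all names), and 16 were higher and 1 lower under SD (23.2% and 12.5% of all names). Of the 23, 20 had a mean of at least 1 RPKM, and 7 of these reached it only through the G93A libraries, with a WT mean below 1 RPKM, so that the 12 calls as higher under vehicle and the 13 under SD among the 20 follow in part from the filter. Pcna, the sliding clamp of DNA polymerase, had 7.38 and 7.18 RPKM in WT and 10.6 and 11.4 RPKM in G93A. Rrm1, a subunit of ribonucleotide reductase, had 6.82 and 6.84 RPKM in WT and 9.42 and 9.28 RPKM in G93A, short of 1.5-fold. Ccne1, a cyclin of the start of S phase, was the gene that was lower, 1.67-fold under SD. Mcm6, a subunit of the replicative helicase, had 2.61 and 2.42 RPKM in WT and 5.35 and 5.54 RPKM in G93A. Neither comparison of SD with vehicle called a gene of the 20.

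Markers of other cell types differed between the libraries as well. Of 12 microglial markers, 11 were at least 1.5-fold higher in G93A in both genotype comparisons (12% of all names), and their summed level was 153 and 131 RPKM in the WT libraries and 1061 and 1108 RPKM in the G93A libraries. C1qa, a complement component and the highest of them, was 10.8-fold higher under vehicle and 13.0-fold higher under SD. Of 7 astrocyte markers, 5 were higher in G93A in both (12% of all names), with sums of 1362 and 1300 RPKM in WT and 3681 and 4415 RPKM in G93A. Of 7 motor neuron markers, 5 had a mean of at least 1 RPKM, and 3 were lower in G93A under vehicle (4.68% of all names) and 4 under SD (8.12%), with sums of 406 and 384 RPKM in WT and 220 and 143 RPKM in G93A. Of 7 oligodendrocyte markers, 0 were called under vehicle and 1 was lower under SD. Of 6 neuronal markers, 3 were lower under vehicle and 4 under SD, and of 3 endothelial markers 0 and 1 were, beside the same 4.68% and 8.12% of all names. With SD in WT, none of these markers was called higher or lower. With SD in G93A, Chat and Nefh of the motor neuron markers were lower, by 1.51-fold and 1.61-fold, as was the endothelial Cldn5, by 1.88-fold (1.04% of all names), and the astrocyte marker Vim was 1.54-fold higher (1.34% of all names). The part of these cell types in the values of Hist1h2bc and of the Hist3 genes was not tested.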

How the data were processed

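The authors deposited 1 table with 1 column per library. The deposited values were read as RPKM, which the authors made from aligned bases, transcript length and depth as far as the values show, since the header names no unit. The authors' methods name polyA RNA, 53 bp reads, STAR on GRCm38 (mm10 in the submitters' notes) and HTSeq on an Ensembl set, whereas the table lists RefSeq transcripts, and the step to these values is not given in the sources used here. The authors' own ratio columns were not used. Rows of 1 name were averaged. With 1 library per condition no test was run, and a name was called at 1.5-fold, without a pseudocount, where its mean was at least 1 RPKM. All 9 such members are named, with the 3 highest of the others and a few more of the others where a sentence needed them. Of each list a few genes are named, mostly the highest or called, with counts for the rest. The members and lists were chosen with earlier results of these data known.

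Model lengths were sought from the coding length, where known, up to 8000 bases with a tolerance of 0.0001 aligned bases, a limit tightened after the deviations were seen. The commonest low value was 216 aligned bases, used as the unit of depth. It is no multiple of the stated 53 bp, and whether it is 1 fragment was not settled, so no interval was derived. Scripts ran in Python 3.11.15 with numpy 2.4.6 and pandas 2.3.3 and were tested on simulated data. Promoters and sequences came from RefSeq and GENCODE vM21. Shared windows were taken at the stated read length, after a longer window had also been computed, which is not given here. The values do not settle whether reads had the stated length, and the shares of windows depend on it. The alternatives were no filter on low values, pseudocounts of 0.1 and 1 RPKM, a 2-fold limit, median-ratio scaling, and a name passing on any of its rows. Counting every listed gene was added after seeing the data.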

Additional observations from a re-analysis of the deposited data

Results flagged for a closer look

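Hist1h1e, a linker histone gene, went in opposite directions in the 2 genotypes, and this difference was not tested, since each condition has 1 library. On the log2 scale it differed by 0.63 in WT + SD against WT vehicle and by -0.44 in G93A + SD against G93A vehicle. Put the other way, it differed by 0.22 in G93A vehicle against WT vehicle and by -0.85 in G93A + SD against WT + SD. Both pairs use the same 4 values. Both differences past 1.5-fold ended with a pseudocount of 1 RPKM, at 0.38 and -0.49. The gene shares exon sequence with Hist1h2be, and the part of this in the values was not tested.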

How the results depend on the processing

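Of the 48 counts recomputed under an alternative, 34 stayed within 1.5 times their value and 14 did not. Without a filter on low values, 17 members were higher and 13 lower in G93A vehicle against WT vehicle, 11 higher and 22 lower in G93A + SD against WT + SD, 20 higher and 16 lower in WT + SD against WT vehicle, and 9 higher and 20 lower in G93A + SD against G93A vehicle. With median-ratio scaling, 1 member (Hist3h2ba) was lower in G93A vehicle against WT vehicle. With a 2-fold limit, 0 members were higher and 0 lower in G93A + SD against WT + SD, and 0 were higher in WT + SD against WT vehicle. With a pseudocount of 1 RPKM, 1 (Hist1h2be, without Hist1h1e and Hist3h2ba) was lower in G93A + SD against WT + SD and 0 (without Hist1h1e) were higher in WT + SD against WT vehicle. Hist1h2bc stayed at least 2-fold higher in G93A vehicle against WT vehicle. Of the ratios of single members under pseudocounts or scaling, 106 kept their sign, and the other 2 (Hist2h3c2-ps and Hist3h2ba) were near 0 and not called. Levels below 1 RPKM rest on few reads. No analysis paired by replicate number was made, since each condition has 1 library. An additive fit of genotype and treatment over the 4 libraries, which would leave 1 residual degree of freedom, was not run.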
